A study of Mus musculus with 15 samples.

Results

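The Notch pathway genes described here were 10 named genes: the receptors Notch1, Notch2 and Notch3, the ligand Dll1, the nuclear effector Rbpj and the target genes Hes1, Dtx1, Ptcra, Nrarp and Hey1. They were taken by name from 21631 protein-coding genes placed on chromosomes 1 to 19 and X of GRCm38.p6 (RefSeq), and all 10 were found. Each was examined over its RefSeq span plus 20 kb on each side. The study profiled EL4, an established mouse T lymphoma line of C57BL/6N origin, and its labels name no treatment. Chromatin immunoprecipitation with sequencing (ChIP-seq) was run for 5 histone post-translational modifications (PTMs), H3K4me3, H3K9ac, H3K27ac, H3K36me2 and H3K27me3, and accessible chromatin was mapped by ATAC-seq. Each of these 6 assays gave 2 replicates, so 12 interval lists were used. The study calls the replicates behind its peaks technical, so any spread given here is between technical replicates and not between separate cultures.

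Notch receptors are cut by proteases when a ligand such as Dll1 on a neighbouring cell binds them, and the released intracellular domain joins the DNA-binding protein Rbpj in the nucleus to switch on target genes. In developing T cells, Notch1 signalling sets and keeps T lineage fate, and Hes1, Dtx1, Ptcra and Nrarp are among its best known targets there. H3K4me3, H3K9ac and H3K27ac mark active promoters, the acetyl marks and accessible DNA also mark enhancers, H3K36me2 spreads over broad stretches within and between genes, and H3K27me3 is the mark of Polycomb repression.

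The promoter of a gene was taken as the stretch from 3 kb before to 2 kb after its start site. For Hes1 and Hey1, the same distances outside and inside both gene ends were used. A gene was called for an assay when at least 1 bp of an interval fell in that stretch in both replicates. Because the lists hold positions without scores or read counts, the depth behind an interval is unknown, and an interval is either there or not. The sequences of 5 promoters that differed in their marks are shown first, as the 250 bases before the start site in RefSeq's GRCm38.p6 table, read 5′ to 3′ on the gene's own strand. Capitals mark TGGGAA, the core of the site that Rbpj recognises, or its complement TTCCCA. Notch2 (chr3:98013288-98013537, plus strand) and Rbpj (chr5:53590096-53590345, plus strand, the first of 2 listed start sites) had all 3 active marks and ATAC-seq intervals. Nrarp (chr2:25180508-25180757, plus strand) had the 3 marks without an ATAC-seq interval. Notch1 (chr2:26503823-26504072, minus strand) and Ptcra (chr17:46763713-46763962, minus strand) had none of these.
Notch2: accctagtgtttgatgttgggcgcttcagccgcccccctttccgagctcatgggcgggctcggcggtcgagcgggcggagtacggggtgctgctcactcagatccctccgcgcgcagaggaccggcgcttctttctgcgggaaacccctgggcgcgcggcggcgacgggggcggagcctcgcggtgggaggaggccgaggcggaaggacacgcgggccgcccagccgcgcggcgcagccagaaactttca
Rbpj: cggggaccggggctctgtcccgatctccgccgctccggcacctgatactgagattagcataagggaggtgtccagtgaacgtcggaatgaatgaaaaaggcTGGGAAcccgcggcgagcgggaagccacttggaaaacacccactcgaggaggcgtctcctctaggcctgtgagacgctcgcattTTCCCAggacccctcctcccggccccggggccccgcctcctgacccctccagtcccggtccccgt
Nrarp: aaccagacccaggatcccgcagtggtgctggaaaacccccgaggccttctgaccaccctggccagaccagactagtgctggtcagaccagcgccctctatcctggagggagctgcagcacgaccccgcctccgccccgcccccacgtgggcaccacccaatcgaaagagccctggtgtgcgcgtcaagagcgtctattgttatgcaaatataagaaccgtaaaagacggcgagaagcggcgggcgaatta
Notch1: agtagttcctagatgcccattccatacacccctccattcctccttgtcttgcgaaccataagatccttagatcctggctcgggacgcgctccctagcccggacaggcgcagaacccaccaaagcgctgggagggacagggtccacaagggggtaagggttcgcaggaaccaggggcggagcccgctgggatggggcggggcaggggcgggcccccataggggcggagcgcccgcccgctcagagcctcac
Ptcra: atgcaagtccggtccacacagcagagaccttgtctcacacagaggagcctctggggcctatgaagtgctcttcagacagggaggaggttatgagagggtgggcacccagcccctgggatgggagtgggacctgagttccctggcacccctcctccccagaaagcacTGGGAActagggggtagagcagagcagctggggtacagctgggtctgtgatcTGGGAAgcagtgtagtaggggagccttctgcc

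TGGGAA was found on either strand in 21.1% of 21045 RefSeq promoters of this length, and the longer GTGGGAA, which contains it, in 5.31%. Of the 8 members with an entry, Ptcra and Rbpj held the shorter motif and none held the longer one. In Ptcra it lay at 84 and 32 bases before the start, and in Rbpj at 149 and 65 bases before the first listed start. The number of CpG dinucleotides in the same 250 bases had a median of 10 over all promoters, with quartiles of 3 and 19. Notch2 held 34, above 95.5% of promoters, and Ptcra held 1, above 6.45%. Between these were Nrarp with 18, Notch3 with 17, Notch1 with 16 and Dtx1 with 15, while Rbpj held 21 and 25 and Dll1 21 and 13 at their 2 start sites. Nrarp, with 18, had promoter peaks of the active marks, and Notch3 and Notch1, with 17 and 16, had none. Dll1, also without them, held 21 at 1 of its 2 start sites. Hes1 and Hey1 had no entry and were not compared. Whether CpG number goes with the marks was not tested.

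At the promoters, the members fell into a set with all 3 active marks and a set with none of them. H3K4me3 was called at 5 of the 10 promoters, those of Notch2, Rbpj, Hes1, Nrarp and Hey1, against 46.3% of all protein-coding genes. The same 5 genes were called for H3K9ac (45.7% of all genes) and for H3K27ac (46.0%), and all 3 marks together were called for 45.2% of genes. ATAC-seq was called at 4 promoters, Notch2, Rbpj, Hes1 and Hey1, against 41.7% of genes. H3K27me3 was called at Hes1 alone, against 11.0% of genes, and H3K36me2 at Notch2 alone, against 29.0%. Notch3, Dll1, Dtx1 and Ptcra had no promoter interval of any assay in any replicate, as did 29.4% of all genes. The shares of members called for the active marks and ATAC-seq were thus close to those of all genes. By role, 1 of 3 receptors and 3 of 5 target genes were called for each active mark, and 1 and 2 for ATAC-seq. With so few genes per role and 2 replicates of an assay, no test of receptors against targets was run on these counts.

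**Figure D1:**
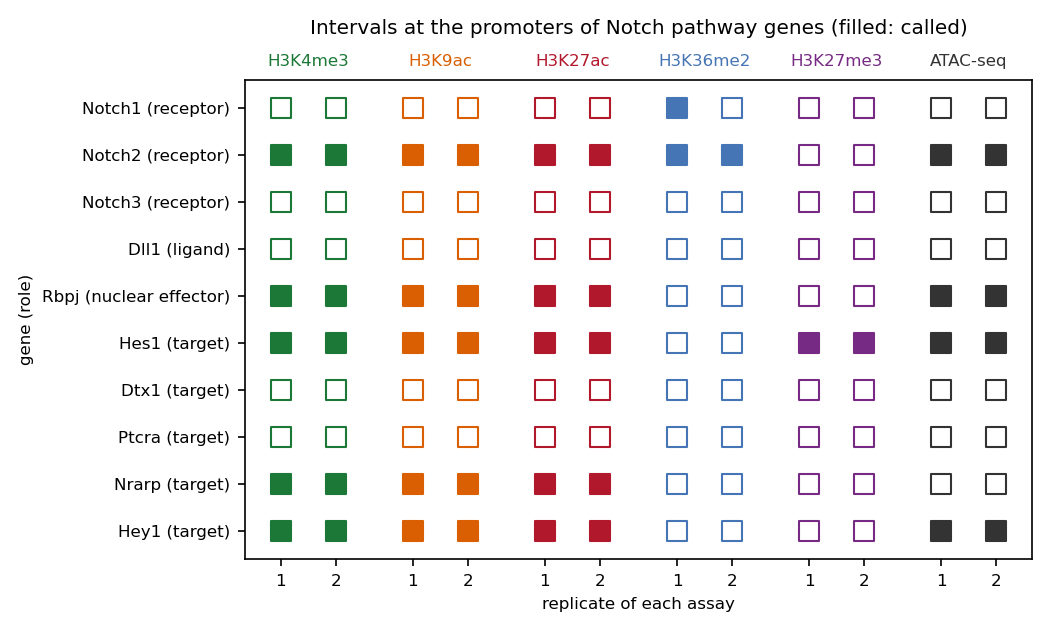
Promoter calls of the 10 genes (rows, with role) in replicates 1 and 2 of each of 6 assays (columns); a filled square marks at least 1 bp of an interval between 3 kb before and 2 kb after a start site, or around either gene end for Hes1 and Hey1. The 3 active marks fill the same 5 rows in both replicates, and Notch1 shows 1 filled square, H3K36me2 in replicate 1.

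Notch1, the receptor that directs T lineage commitment, lay on chr2:26457902-26503822, minus strand, and had no interval of H3K4me3, H3K9ac, H3K27ac, H3K27me3 or ATAC-seq at its promoter in either replicate. The peaks of active marks closest to its start lay inside the gene, about 10 kb downstream. There, H3K27ac intervals were 724 bp and 743 bp wide in replicates 1 and 2, and H3K9ac intervals were 507 bp and 399 bp wide. H3K4me3 gave an interval of 217 bp at this place in replicate 2 and none in replicate 1, and ATAC-seq gave none in either. Both acetyl marks were thus found at this intragenic site in both replicates, and the promoter mark was not. Replicate 2 alone had a further H3K27ac interval of 456 bp, 42.9 kb downstream of the start.

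The remaining narrow peaks in the Notch1 window lay over 56 kb downstream of the start, beyond the 3′ end of the gene, at the neighbouring genes Sec16a and 0610009E02Rik. The H3K4me3 intervals there were 1300 bp and 1545 bp wide in replicate 1 and formed 1 interval of 2977 bp in replicate 2. The only ATAC-seq interval of the window, 1148 bp and 1352 bp wide in the 2 replicates, lay at the same place, 57.7 kb from the Notch1 start in both. H3K36me2 covered 32.7% and 24.8% of the window, mostly over the 3′ part of the gene and beyond it. In replicate 1 an H3K36me2 interval of 3799 bp ended 579 bp before the start, and in replicate 2 the nearest one lay 38.4 kb away. No H3K27me3 was found within 179 kb of the start in either replicate.

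Notch2 (chr3:98013538-98150367, plus strand) was the receptor with a marked promoter. H3K4me3 intervals of 1772 bp and 1774 bp spanned its start site in replicates 1 and 2, and replicate 1 had another of 200 bp just downstream. H3K9ac intervals were 1500 bp and 1440 bp wide, H3K27ac intervals 1436 bp and 1483 bp, and ATAC-seq intervals 589 bp and 498 bp, and all of them crossed the start site. The H3K4me3 intervals were wider than 66.7% and 66.6% of the intervals in their lists.

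A further group of peaks lay in the Notch2 gene body, about 29 kb to 31 kb downstream of the start, and touched no promoter of another gene. H3K4me3 was 2125 bp and 1749 bp wide there, H3K27ac 2271 bp and 2331 bp, and ATAC-seq 378 bp and 487 bp. In both replicates this intragenic H3K27ac interval was wider than the one at the start site. About 41 kb downstream, H3K27ac intervals of 477 bp and 515 bp lay next to ATAC-seq intervals of 221 bp and 335 bp, without H3K4me3. H3K36me2 covered 72.9% and 79.9% of the Notch2 window and 89.5% and 95.4% of the gene span. This was the highest H3K36me2 coverage among the members and above that of 95.2% of protein-coding genes, whose median was 13.8%. The promoter call for H3K36me2 rested on the edge of an interval in replicate 2, which began 1.86 kb after the start, whereas in replicate 1 an interval of 30199 bp crossed the start. H3K27me3 gave 1 interval in the window, of 4199 bp at Adam30, in replicate 1 only.

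Notch3 (chr17:32120820-32166896, minus strand) had no promoter interval in any of the 12 lists. Its H3K4me3 intervals, 905 bp and 869 bp wide, lay 48.1 kb downstream of the start, beyond the 3′ end of the gene, with H3K9ac (1287 bp and 1254 bp) and H3K27ac (1650 bp and 1696 bp) at the same place touching no promoter of another gene. H3K27me3 intervals of 4999 bp and 6999 bp lay in the gene body from 25.3 kb downstream of the start in both replicates. Together with an interval in the flank, H3K27me3 covered 13.5% and 17.2% of the window. The gene body intervals also touched the promoter of Gm41568. The only ATAC-seq interval, 253 bp, was found in replicate 1. The 3 receptors therefore showed 3 arrangements of the active marks. Notch2 had them at its start and within the gene. Notch1 had both acetyl marks within the gene in both replicates and all 3 marks beyond it, but none at its start. Notch3 had them only beyond the gene.

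**Figure D2:**
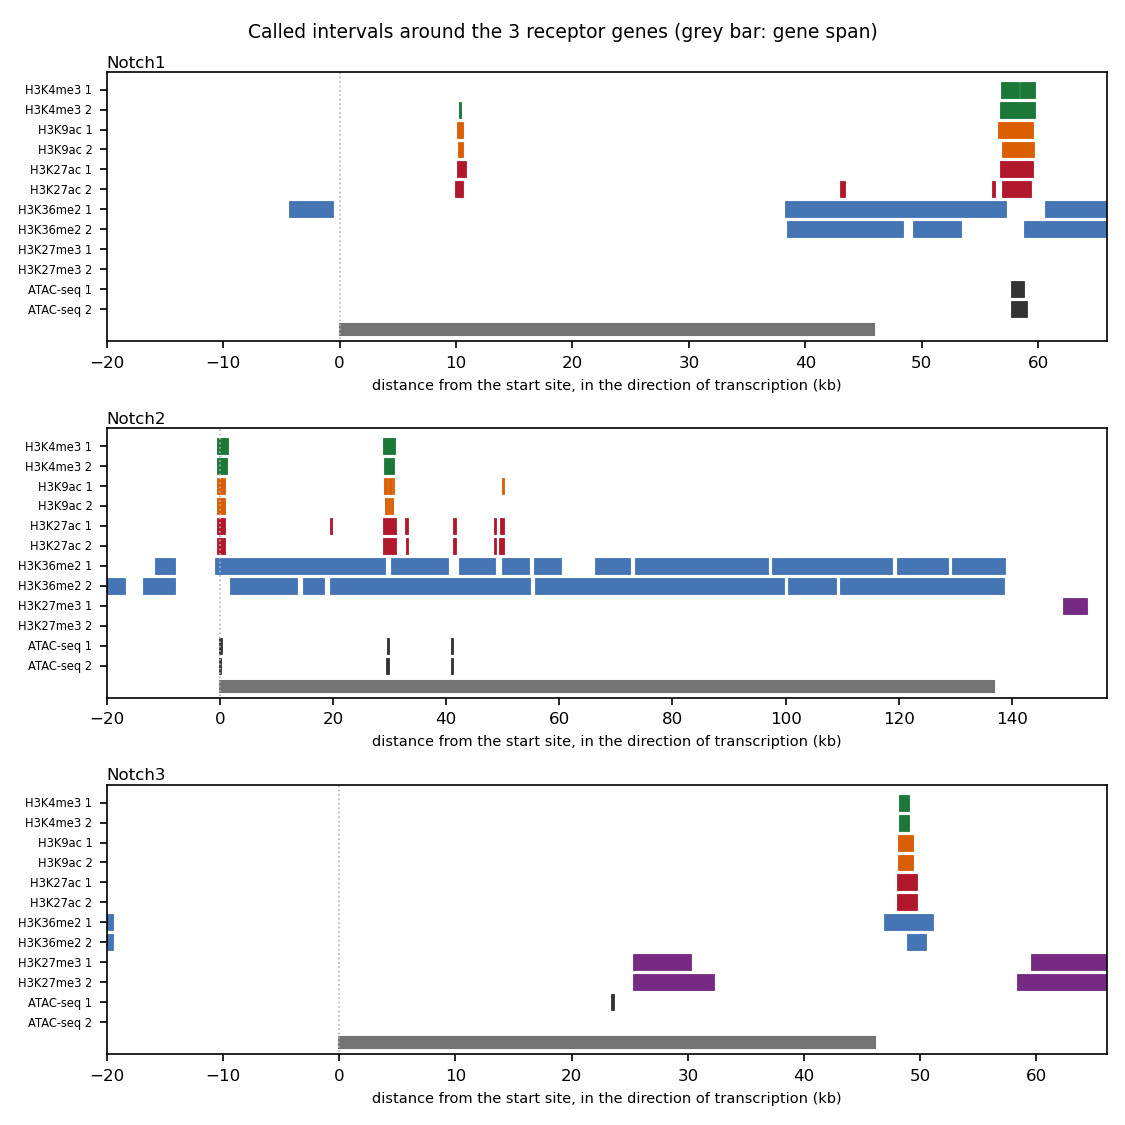
Intervals of the 12 lists around Notch1, Notch2 and Notch3, plotted by distance from the start site in the direction of transcription (kb); each row is 1 replicate of 1 assay, coloured bars are intervals to scale, and the grey bar is the gene span. The active marks sit over the start of Notch2 and further inside it, about 10 kb inside Notch1 and beyond its 3′ end, and 48.1 kb from the start of Notch3.

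Dll1, a ligand of Notch receptors, lay on chr17:15367354-15376932, minus strand, and had no promoter interval of any list at either of its 2 start sites. The active marks and ATAC-seq in its window belonged to the promoter of Fam120b, whose H3K4me3 intervals of 1658 bp and 1612 bp lay 18.7 kb upstream of Dll1 in both replicates. H3K27me3 covered 43.2% and 56.2% of the Dll1 window, the highest among the members and above 94.1% of protein-coding genes. The nearest H3K27me3 interval was 3.27 kb from a start site in replicate 1 and 5.42 kb in replicate 2, and the replicates differed in where the intervals lay. In replicate 1 none of the gene span was covered, and in replicate 2 31.8% of it was. H3K36me2 was absent from the lists over this window.

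Rbpj, the DNA-binding partner of the released Notch domain, lay on chr5:53555779-53657445, plus strand, and carried the widest promoter peaks of the group. H3K4me3 intervals were 3849 bp and 3796 bp wide, wider than 96.9% of the intervals of either list. H3K9ac intervals were 3425 bp and 3538 bp wide, and H3K27ac intervals 3236 bp and 3164 bp. ATAC-seq gave 2 intervals at the promoter in each replicate, 838 bp and 891 bp wide in replicate 1, and 968 bp and 1071 bp in replicate 2. The H3K4me3 interval at Rbpj was wider than any single one at the other 4 called promoters in both replicates. Summed over its several intervals, H3K4me3 at the Hes1 promoter was wider, at 4180 bp and 4017 bp.

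Another marked site lay about 24 kb before the first listed Rbpj start, inside the annotated gene span. It had H3K4me3 intervals of 984 bp and 928 bp, H3K9ac intervals of 876 bp and 828 bp, and H3K27ac intervals of 913 bp and 823 bp, each with a smaller fragment beside it in at least 1 replicate. ATAC-seq gave an interval of 200 bp there in replicate 2 and none in replicate 1. H3K36me2 covered 31.5% and 37.4% of the Rbpj window in pieces of 2199 bp to 9999 bp, the nearest 8.52 kb and 10.7 kb from a start site. H3K27me3 was not found in the window.

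**Figure D3:**
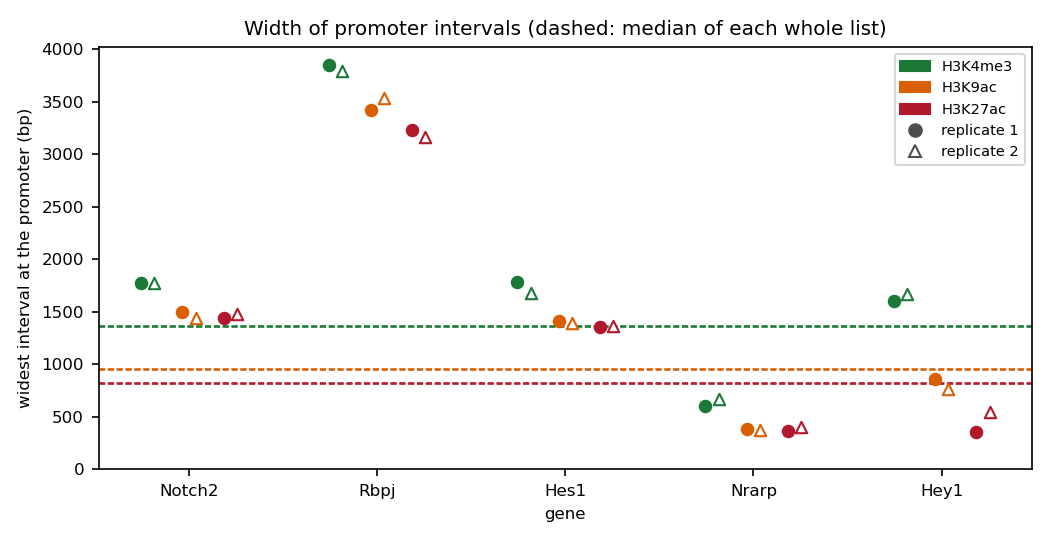
Width in bp of the widest promoter interval of H3K4me3, H3K9ac and H3K27ac at the 5 called genes, as 1 point for each replicate, with dashed lines at the median width of each whole list. Rbpj lies far above the medians (1351 and 1363 bp for H3K4me3) and Nrarp below them for every mark.

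Hes1, a basic helix-loop-helix repressor and a direct Notch target, lay on chr16:30065357-30067796 and was the only member with active and Polycomb marks together. A single H3K27me3 interval of 13399 bp in replicate 1 and 14599 bp in replicate 2 covered all of the gene. Within it lay 4 and 5 H3K4me3 intervals in replicates 1 and 2, 2 and 2 of H3K9ac, 2 and 2 of H3K27ac, and 1 and 3 of ATAC-seq. Promoters called for both H3K4me3 and H3K27me3 made up 1.18% of all protein-coding genes. Since the cells were assayed in bulk, marks on the same DNA molecule and marks in different cells or alleles cannot be told apart.

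The active marks flanked Hes1 on each side. The widest H3K4me3 interval, 1782 bp and 1680 bp, ran from -2.27 kb to -0.485 kb in replicate 1 and from -2.25 kb to -0.569 kb in replicate 2, counted from the lower gene end, where negative values lie outside the gene. H3K9ac (1409 bp and 1389 bp), H3K27ac (1359 bp and 1366 bp) and an ATAC-seq interval (346 bp and 309 bp) lay over the same stretch. Another set lay beyond the upper gene end, with H3K4me3 of 1253 bp and 1246 bp and both acetyl marks. H3K4me3 also lay within the gene in both replicates, where neither acetyl mark was listed. The Gm32998 promoter overlapped part of this region. H3K36me2 was not found in the Hes1 window.

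Nrarp, which encodes a short ankyrin repeat protein that feeds back on Notch signalling, lay on chr2:25180758-25183339, plus strand. Its promoter peaks were narrow and started close to the start site. H3K4me3 was 604 bp and 670 bp wide, H3K9ac 380 bp and 375 bp, and H3K27ac 361 bp and 397 bp. Between 21.0% and 26.9% of the intervals of each list were narrower. No ATAC-seq interval lay at the promoter, the nearest being 5.10 kb away in replicate 1 and 12.6 kb in replicate 2. The 3 marks in both replicates with ATAC-seq in neither were found at 2.11% of protein-coding genes.

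Neighbouring genes made up most of the marked DNA in the Nrarp window. H3K4me3 intervals of 1027 bp and 1083 bp touched the promoter of Gm52547, and intervals of 4044 bp and 3765 bp touched that of Tor4a. A small site about 17 kb upstream of Nrarp had all 3 marks in both replicates, with H3K4me3 of 243 bp and 201 bp, and touched no promoter. H3K36me2 covered 13.5% and 15.4% of the window, all of it at Tor4a and beyond.

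Hey1, a repressor related to Hes1, lay on chr3:8663359-8667038 and had 1 peak of each active mark, at its upper gene end. H3K4me3 was 1600 bp and 1668 bp wide, H3K9ac 857 bp and 767 bp, and H3K27ac 358 bp and 545 bp. ATAC-seq gave intervals of 769 bp and 604 bp at the same end, and 1 more of 200 bp near the lower end in replicate 1. The H3K27ac intervals were wider than 22.8% and 37.4% of their lists, while those of H3K4me3 were wider than 59.6% and 62.3%. The peaks of the active marks here also touched the promoter of the gene model LOC115489673. They could therefore not be assigned to 1 of these genes. H3K27me3 and H3K36me2 were not found in the window.

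Ptcra, which encodes the invariant chain of the pre-T cell receptor, lay on chr17:46755663-46763712, minus strand, and had no interval of any list over its span. The window held 3 H3K4me3 intervals in each replicate, all at the promoters of the neighbours Cnpy3, 2310039H08Rik and Rpl7l1. The closest, at 2310039H08Rik, was 1826 bp and 1743 bp wide and lay 8.19 kb and 8.27 kb upstream of the Ptcra start. Each of the 3 neighbours also had H3K9ac, H3K27ac and ATAC-seq in both replicates. H3K36me2 covered 47.3% and 54.4% of the window, on both sides of the gene but not over it. Ptcra was thus an unmarked gene between marked ones, in contrast to Nrarp, whose neighbours and own promoter were both marked.

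Dtx1, which encodes the Deltex ubiquitin ligase, lay on chr5:120680203-120711867, minus strand, in a window without any active mark. No interval of H3K4me3, H3K9ac, H3K27ac or H3K36me2 was listed in it in either replicate, and the nearest H3K4me3 lay 62.1 kb from the start in both. H3K27me3 covered 13.2% and 7.35% of the window, with 3 intervals in replicate 1 and 1 in replicate 2. The interval over the gene body, 5399 bp wide, was found in replicate 1 only, and the one shared by both replicates lay upstream at Oas2. ATAC-seq gave 1 interval of 215 bp, in replicate 2, at Rasal1.

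**Figure D4:**
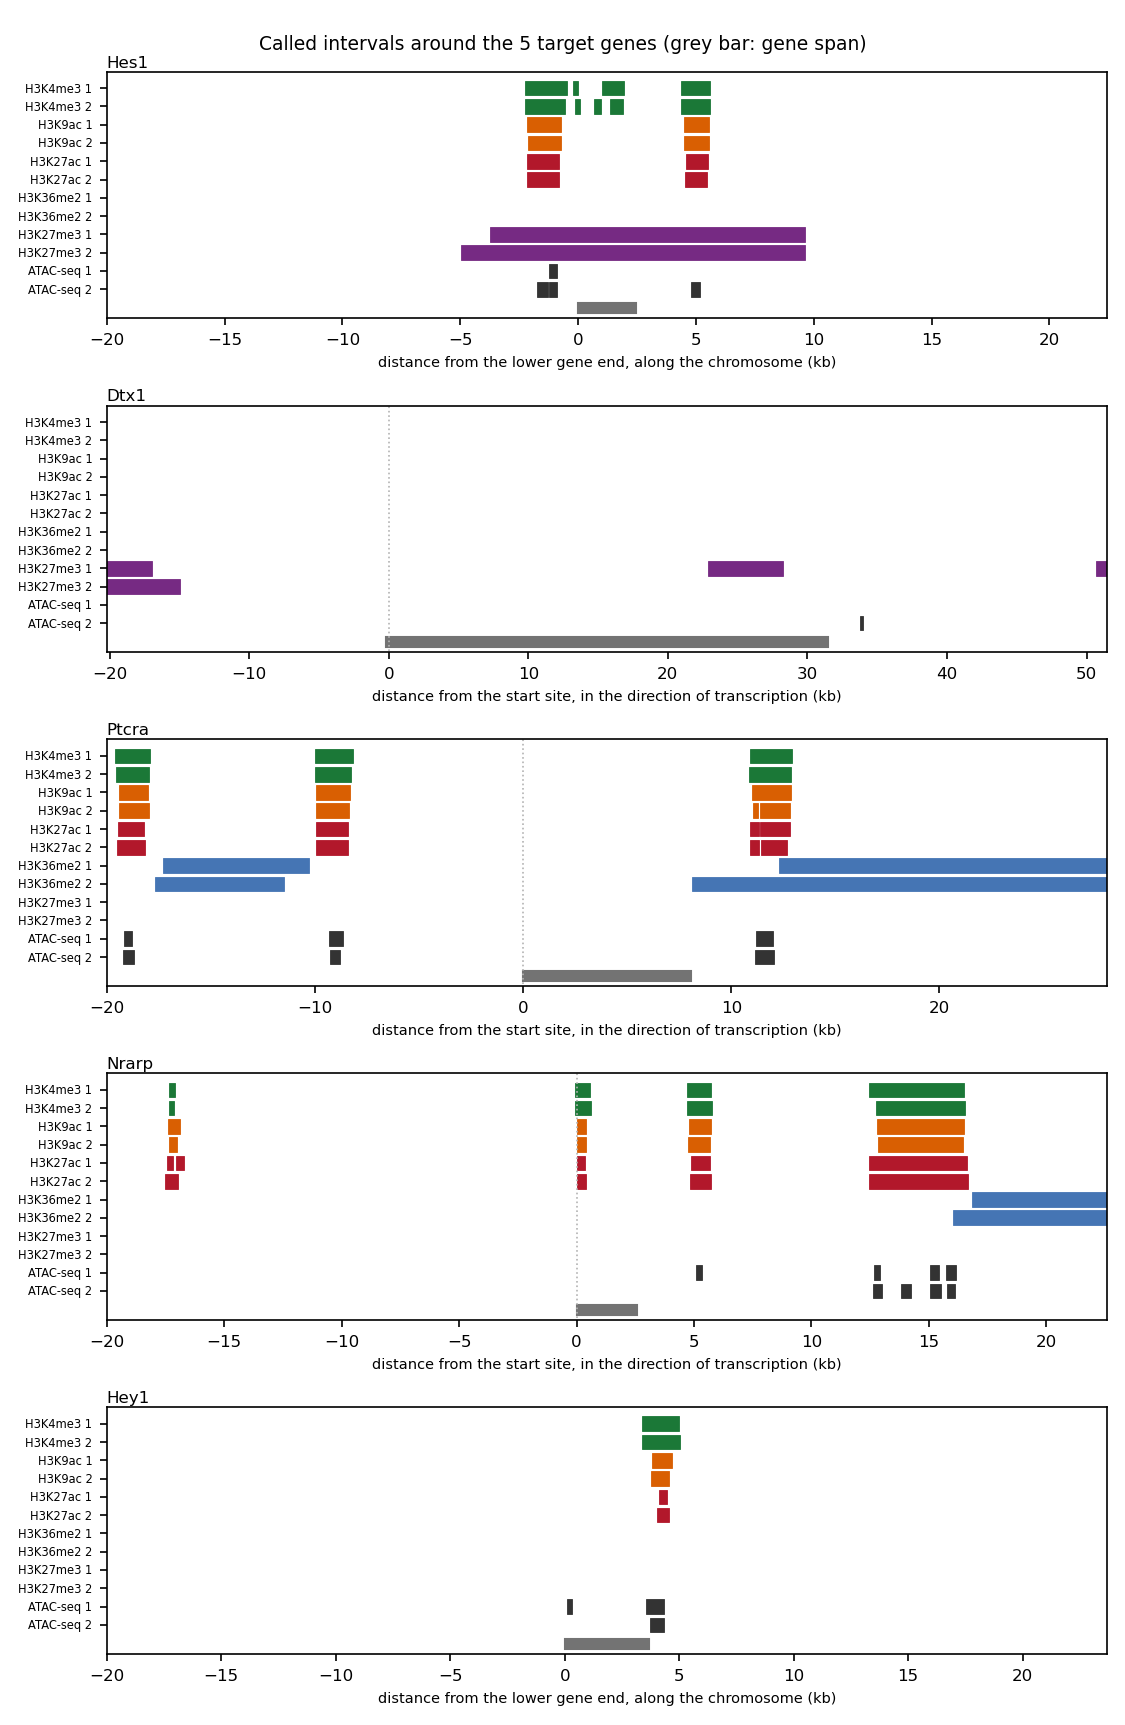
Intervals of the 12 lists around the 5 target genes, each row 1 replicate of 1 assay, coloured bars to scale and the grey bar the gene span; distances are in kb from the start site in the direction of transcription, or from the lower gene end along the chromosome for Hes1 and Hey1. Hes1 lies inside 1 H3K27me3 interval of 13399 bp or 14599 bp, Ptcra is unmarked between marked neighbours, and the Dtx1 window holds only H3K27me3 and 1 ATAC-seq interval.

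Over the whole windows, 9 members had each of the 3 active marks in both replicates, all but Dtx1, against 62.9% of protein-coding genes for H3K4me3, 61.4% for H3K9ac and 62.8% for H3K27ac. H3K36me2 was found in 6 windows (Notch1, Notch2, Notch3, Rbpj, Ptcra and Nrarp, against 59.2%), H3K27me3 in 4 (Notch3, Dll1, Hes1 and Dtx1, against 30.2%) and ATAC-seq in 8, all but Notch3 and Dtx1 (against 59.4%). No window held both H3K36me2 and H3K27me3 in both replicates except that of Notch3. The 10 windows held 22 H3K4me3 intervals in each replicate. Of these, 9 lay at a member's own promoter in each replicate, 4 and 5 of them at Hes1. Peaks at Hes1 and Hey1 among them also touched promoters of other genes, Gm32998 and LOC115489673. A further 8 and 7 intervals lay only at promoters of other genes. A window count therefore described the neighbourhood as much as the member.

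Receptors and targets were then compared by the percent of the window covered by intervals, averaged over the 3 receptors and the 5 targets. H3K36me2 coverage was higher over receptors, at 37.0% and 35.7% in replicates 1 and 2, than over targets, at 12.2% and 13.9%, a difference of 23.3 ± 2.21 percentage points (SD, n = 2). The difference rested on Notch2, and without it was 3.29 percentage points. H3K27me3 covered 5.28% and 5.72% of receptor windows and 8.96% and 8.35% of target windows, a difference of -3.15 ± 0.745 points (SD, n = 2). Without Hes1 it had the opposite sign, at 2.93 points.

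H3K4me3 coverage was 2.23% ± 0.00937 over receptors and 7.68% ± 0.144 over targets (SD, n = 2), a difference of -5.44 ± 0.153 points. H3K9ac differed by -3.70 ± 0.0557 points, H3K27ac by -2.80 ± 0.0142 and ATAC-seq by -1.46 ± 0.310 (SD, n = 2). Each of these differences was larger than the SD of the 2 replicates, which holds no variation between genes. The target windows were shorter, at 42.4 kb to 71.7 kb, than the receptor windows, at 85.9 kb to 177 kb, and Ptcra and Nrarp brought in peaks of neighbours. With intervals that lay only at promoters of other genes left out, the differences were -1.98 points for H3K4me3 and -0.580 for ATAC-seq. Those of the acetyl marks were -0.664 for H3K9ac and 0.402 for H3K27ac. Peaks at the Hes1 and Hey1 promoters that also touched Gm32998 or LOC115489673 were kept, and the differences without them were not computed. For every assay the values of single receptors and single targets overlapped. H3K4me3, for example, covered 1.03% to 3.51% of the receptor windows and 0% to 13.7% of the target windows. Since 2 replicates allow no test of a difference between cells and genes are not replicates, no p-value was computed.

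**Figure D5:**
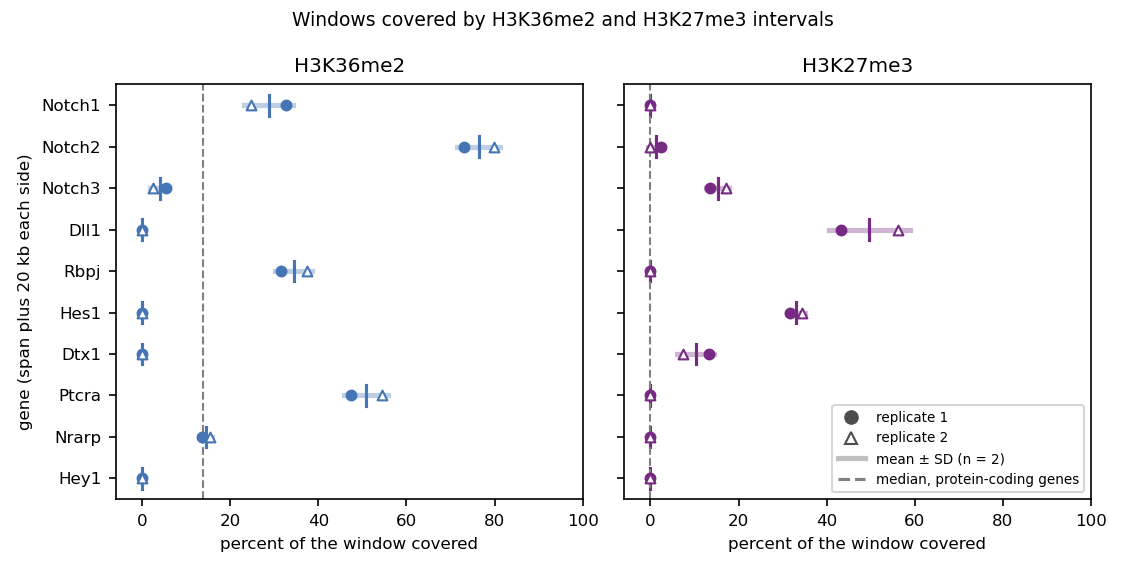
Percent of each member's window (gene span plus 20 kb on each side) covered by H3K36me2 and H3K27me3 intervals, with a filled circle for replicate 1, an open triangle for replicate 2, and a tick and band for mean and SD (n = 2); dashed lines are medians over protein-coding genes (13.8% and 0%). Notch2 is highest for H3K36me2 and Dll1 for H3K27me3, with Hes1 next.

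The 2 replicates shared 90.8% of the base pairs covered by either in the 10 windows for H3K4me3, 88.7% for H3K9ac and 86.8% for H3K27ac. The shares were 73.8% for H3K36me2, 66.4% for ATAC-seq and 60.2% for H3K27me3. Over chromosomes 1 to 19 and X the same shares ran from 49.8% for H3K27me3 to 92.2% for H3K4me3, and the lists held 17519 to 46015 intervals each.

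The wider pathway was read from a list of 36 further genes, all of which were found. H3K4me3, H3K9ac and H3K27ac were each called at 28 of the 36 promoters, against 46.3%, 45.7% and 46.0% of all protein-coding genes. ATAC-seq was called at 26 (41.7% of all genes), H3K36me2 at 17 (29.0%) and H3K27me3 at 2 (11.0%). No test of the list against other genes was run. All 7 genes of receptor cleavage, such as Adam10, which sheds the receptor ectodomain, had the 3 active marks, which 45.2% of all genes had, and ATAC-seq (41.7%). So did all 7 nuclear cofactors and corepressors, such as Maml1, a coactivator of the Rbpj complex. All 7 genes of turnover and trafficking, such as Numb, an inhibitor of Notch, and Itch, a ubiquitin ligase, had the active marks and H3K36me2 (29.0% of all genes), and 6 of them had ATAC-seq. Of the 5 genes that glycosylate the receptor, 4 had the active marks and Lfng had none.

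The other genes without H3K4me3 in either replicate were the receptor Notch4, the ligands Jag2, Dll3 and Dll4, and the Hes and Hey family members Hes5, Hey2 and Heyl. Hes5 and Hey2 were the 2 genes called for H3K27me3. They differed from Hes1 in having no active mark beside it. Among the ligands Jag1 was called for the active marks and ATAC-seq, and Dll1, Jag2, Dll3 and Dll4 were not. Dll3 had a promoter interval of H3K36me2 in replicate 1 only. The H3K27me3 intervals in the Dll1 window lay outside its promoter. In the Hes and Hey family, Hes6 and Hes7 were called like Hes1 and Hey1, without H3K27me3.

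As a check of cell identity, the T cell markers Cd3e, Cd3g, Lck, Thy1, Tcf7 and Bcl11b were called for H3K4me3, H3K9ac and H3K27ac at 6 of 6 promoters and for ATAC-seq at 5, against 45.2% and 41.7% of all protein-coding genes. None of 3 B cell, 3 myeloid, 2 erythroid and 2 other tissue markers was called for an active mark or ATAC-seq in both replicates. Lyz2, a myeloid gene, had an H3K27ac interval in replicate 1 only. Csf1r, another, was called for H3K36me2 and H3K27me3. It had no listed start site, so both gene ends were used, and these marks may lie at different ends. Absence from a list is not proof of absence of a mark, since an interval under the caller's threshold was not listed.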

How the data were processed

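Interval lists from 6 assays of EL4 cells were used, each in 2 replicates. The deposited lists give chromosome, start and end positions without scores, read counts or other measures, so sequencing depth is unknown. Per the study's methods, the authors aligned reads with STAR 2.5 (build GRCm38 in the submitters' processing notes), treated duplicates with Picard, and called intervals in each replicate with MACS2, or with Epic for the broad marks H3K36me2 and H3K27me3. Input and RNA-seq samples (3 of 15) were not used here.

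Positions were counted from 1 and compared with RefSeq gene spans and start sites of GRCm38.p6 in Python 3.11.15 with pandas 2.3.3 and numpy 2.4.6, on chromosomes 1 to 19 and X. The methods state that reads on X were discarded, but all 12 lists hold intervals on X, so its 966 genes were kept. Promoter H3K4me3 was called at 31.1% of them and at 47.0% of autosomal genes, H3K36me2 at 1.24% and 30.3%, H3K27me3 at 1.35% and 11.5%, and ATAC-seq at 26.5% and 42.4%. All members are autosomal. Start sites were listed for 17274 protein-coding genes, and for the other 4357, Hes1 and Hey1 among them, both gene ends were used, 3 kb outside to 2 kb inside. A call needed an overlap of 1 bp in both replicates. The counting was tested on simulated intervals and checked against bedtools 2.31.1, with 0 of 12 lists differing. All 10 members were described, and genes of the wider list were named where H3K4me3 was called in no replicate or H3K27me3 in both, with 1 or 2 examples for each role. The members and lists were chosen with earlier results of these data known.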

Additional observations from a re-analysis of the deposited data

How the results depend on the processing

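No paired analysis was possible because the results come from no test. Some alternatives were chosen after seeing the data. These leave out members, leave out intervals that lie only at promoters of other genes, or use both gene ends for all genes. Intervals that also touched the member's own promoter were kept. Causes of the changes below were not tested, and without read counts the depth could not be weighed.

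The count of 5 promoters called for H3K4me3 became 7 with 20 kb on either side of the start site and 6 with both gene ends for all genes, and was 5 under the other alternatives run. With 20 kb on either side of the start site, 8 members were called for H3K9ac, 8 for H3K27ac, 5 for H3K36me2, 3 for H3K27me3 and 7 for ATAC-seq. The share over all protein-coding genes was not taken under the alternatives of this paragraph. Their counts therefore cannot be set against the promoter shares given above. With intervals of at least 500 bp only, 3 were called for H3K27ac and 2 for ATAC-seq. The H3K36me2 count of 1 became 2 without replicate 2 (range over replicates left out 1 to 2), 2 with an interval in either replicate, 0 with 1 kb on either side of the start, 0 by interval midpoint and 4 with both gene ends for all genes. With both ends, 2 were called for H3K27me3.

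The window counts below likewise have no share over all protein-coding genes beside them, so they describe these members only. In the gene span only, 5 members had H3K4me3, 4 H3K9ac, 4 H3K27ac, 3 H3K36me2, 2 H3K27me3 and 2 ATAC-seq. With 50 kb on each side, 7 had H3K27me3. With at least 500 bp, 5 had ATAC-seq. Without intervals that lay only at promoters of other genes, 6 members had H3K4me3, 7 H3K9ac and 7 H3K27ac. In that setting 3 had H3K36me2, 3 H3K27me3 and 5 ATAC-seq.

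Across the settings run, the difference of receptors minus targets, in percentage points of the window covered, changed sign in 2. It became 2.93 for H3K27me3 without Hes1, and 0.402 for H3K27ac without intervals that lay only at promoters of other genes. In the gene span only it was -13.2 for H3K4me3, -1.99 for H3K9ac, -0.903 for H3K27ac, 36.3 for H3K36me2, -17.4 for H3K27me3 and -0.537 for ATAC-seq. With 50 kb on each side it was -2.38 for H3K4me3, -1.48 for H3K9ac, -0.989 for H3K27ac, -4.45 for H3K27me3 and -0.647 for ATAC-seq. With 20 kb on either side of the start site (of the middle of the gene for Hes1 and Hey1) it was -6.84 for H3K4me3, -5.13 for H3K9ac, -4.71 for H3K27ac, 12.7 for H3K36me2, -9.03 for H3K27me3 and -2.00 for ATAC-seq. Over base pairs covered in both replicates it was -5.15 for H3K4me3, -2.91 for H3K27ac, 19.7 for H3K36me2 and -0.968 for ATAC-seq. Without Notch2 it was -3.38 for H3K9ac, -2.87 for H3K27ac, 3.29 for H3K36me2 and -0.997 for H3K27me3. Without Hes1 it was 20.05 for H3K36me2, -4.95 for H3K4me3, -3.77 for H3K9ac and -2.95 for H3K27ac. Without intervals that lay only at promoters of other genes it was -1.98 for H3K4me3, -0.664 for H3K9ac, 28.9 for H3K36me2, -4.68 for H3K27me3 and -0.580 for ATAC-seq.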
